A study of Mus musculus with 18 samples.

Results

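Expression was followed in mouse liver for 9 genes, the metallothionein genes Mt1 and Mt2 and 7 genes of glucocorticoid action: Fkbp5, Zbtb16, Dusp1, Tsc22d3, Sgk1, Nr3c1 and Hsd11b1. They were chosen by symbol, with earlier results of these data known, so that counts among them describe the genes and are no independent test. All 9 were among the 19057 genes of the deposited table. RNA had been sequenced from the livers of male ICR mice, an outbred strain, at 10 weeks of age, in 18 libraries that fell into 6 groups of 3. Con mice received regular diet and saline. HS mice were fed a high-fat diet and were given a single injected dose of streptozotocin (STZ), which damages pancreatic beta cells. Mice of A10-FMT and Con-FMT had the same diet and STZ as HS and were then given gut microbiota by mouth, in A10-FMT from donors that had been dosed with alginate oligosaccharide (AOS) at 10 mg/kg and in Con-FMT from control donors. The donor material was small-intestinal content pooled within each donor group, so that the recipients of a group shared a single inoculum. The remaining groups were known from the labels alone, A10 (AOS at 10 mg/kg) and HS+A10 (the HS regimen with AOS at 10 mg/kg). The question put by the design was how transfer of microbiota changed the liver of mice on the high-fat diet and STZ.

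Glucocorticoids are steroid hormones of the adrenal gland whose release follows stress, fasting and the time of day. They bind the glucocorticoid receptor, encoded by Nr3c1, which is held by chaperones in the cytosol and after binding moves to the nucleus and acts on target genes. In liver these targets include genes of gluconeogenesis and amino acid breakdown, and the same receptor raises Fkbp5, Tsc22d3 and Dusp1. Hsd11b1 encodes the enzyme that turns the inactive 11-keto steroid back into active hormone inside the hepatocyte. Metallothioneins are small proteins that bind zinc and copper, and their genes respond to metals through the factor MTF1, to glucocorticoids and to inflammatory signals.

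Values were RPKM, reads scaled by gene length and by the reads of the library, so that levels could be compared between genes on that scale. RPKM summed to between 692818 and 806937 per library, and the spacing of the lowest values put the relative depth of the 18 libraries between 0.957 and 1.04 on a relative scale. Hepatocyte markers were abundant in every library, with summed levels of 48840 to 71590 RPKM. Several libraries stood apart. In Con, replicate 3 lay between replicates 1 and 2 for 98.6% of the 140 genes in which those libraries differed at least by 1 on the log2 scale, and in A10, replicate 3 lay between its partners for 96.3% of 135 such genes, against 6.52% to 74.6% in the other 16 libraries. Of the 9 genes, 6 had this order in Con and 8 in A10, and results that rest on these groups are therefore also given without replicate 3 of Con and of A10. Con-FMT replicate 3 held 16370 RPKM of pancreatic acinar cell markers, against 14.1 to 50.2 RPKM in the other 17 libraries, and HS replicate 2 held 10040 RPKM of red blood cell markers, more than the other libraries. Nothing states whether the libraries of a group came from separate animals, so that p-values measure the spread between these libraries. In bulk tissue, fewer cells of a type and less RNA per cell cannot be told apart.

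Groups were compared with limma on log2(RPKM + 1), and a gene was called when its Benjamini-Hochberg adjusted p over all genes tested was under 0.05. For 3 libraries against 3, the exact permutation test (two-sided) cannot go below p = 0.1, the value it takes wherever 2 groups do not overlap. All 9 genes passed the filter of a mean of at least 1 RPKM, and the mean of each was also above it without the Con-FMT libraries (the lowest was Zbtb16 at 1.39 RPKM over the other 15).

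Mt1 and Mt2 were the genes with the widest range. They are neighbours on chromosome 8 of the mouse genome (GRCm38.p6), where RefSeq places Mt2 at chr8:94172618-94173567 and Mt1 at chr8:94178883-94180327, both on the plus strand and with 5315 bases between them. Both windows of 300 bases around the start site are shown because these genes moved together. The start site of the Mt2 window is the RefSeq start given here, whereas that of the Mt1 window lies inside the Mt1 span. Their match counts thus come from unlike positions. Capitals mark matches to the core of the metal response element, TGCACNC or TGCGCNC on either strand, which is the kind of motif that MTF1 reads.
Mt1, chr8:94178839-94179138, plus strand: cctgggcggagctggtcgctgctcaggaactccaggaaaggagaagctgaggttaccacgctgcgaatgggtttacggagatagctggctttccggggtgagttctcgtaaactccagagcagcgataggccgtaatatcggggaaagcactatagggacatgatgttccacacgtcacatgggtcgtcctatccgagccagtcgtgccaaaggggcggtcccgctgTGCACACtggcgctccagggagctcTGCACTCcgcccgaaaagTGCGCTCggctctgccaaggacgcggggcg
Mt2, chr8:94172368-94172667, plus strand: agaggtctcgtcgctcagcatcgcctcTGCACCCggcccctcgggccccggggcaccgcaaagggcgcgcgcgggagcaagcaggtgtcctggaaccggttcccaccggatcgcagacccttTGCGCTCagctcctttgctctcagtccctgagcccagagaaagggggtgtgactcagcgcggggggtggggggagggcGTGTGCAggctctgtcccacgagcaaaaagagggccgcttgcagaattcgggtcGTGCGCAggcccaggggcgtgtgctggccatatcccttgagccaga
The Mt1 window held 3 matches and the Mt2 window held 4. At least 1 match was present in 25.7% of the 32851 mouse start-site windows of this length in the RefSeq set, and at least 4 matches in 0.518%. The glucocorticoid half-site AGAACA, searched on both strands, was in neither window, and it was present in 19.0% of all windows. A match of letters is a description of the window and shows no binding.

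Mt1 stood at 1892, 1454 and 1454 RPKM in the 3 Con-FMT libraries, against 33.2, 62.1 and 73.1 RPKM in HS and 75.8, 67.8 and 60.9 RPKM in A10-FMT. In Con it was 736, 58.15 and 493 RPKM, in A10 70.2, 32.5 and 36.1 RPKM, and in HS+A10 386, 85.2 and 32.4 RPKM. Every Con-FMT library was thus above all 15 others, while Con replicate 2 lay far below the other Con libraries and HS+A10 replicate 1 far above the rest of its group. In the order of their means Con-FMT was followed by Con, HS+A10, A10-FMT, HS and A10, and each of these overlapped its neighbour except Con-FMT. Mean Mt1 in Con-FMT, 1599.8 ± 253 RPKM (SD, n = 3), was 28.5 times that of HS (56.1 ± 20.6 RPKM), a log2 change of 4.87 (standard error 0.71, limma adjusted p = 0.00176). It was 23.5 times that of A10-FMT, and A10-FMT compared with Con-FMT gave a log2 change of -4.53 (standard error 0.71, limma adjusted p = 0.00309).

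Mt2 followed Mt1 across the libraries. It was at 1599, 928 and 1152 RPKM in Con-FMT, 11.2, 19.0 and 20.2 RPKM in HS, and 18.6, 25.4 and 13.8 RPKM in A10-FMT. The corresponding values were 311, 23.35 and 199.8 RPKM in Con, 43.8, 11.7 and 18.4 RPKM in A10, and 156, 37.8 and 10.5 RPKM in HS+A10. Con-FMT again lay above all other libraries, with a mean 73.0 times that of HS, the largest ratio among the 9 genes in that comparison (log2 change 6.11, standard error 0.72, limma adjusted p = 6.52e-04). A10-FMT compared with Con-FMT gave a log2 change of -5.92 (standard error 0.72, limma adjusted p = 0.00107).

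**Figure D1:**
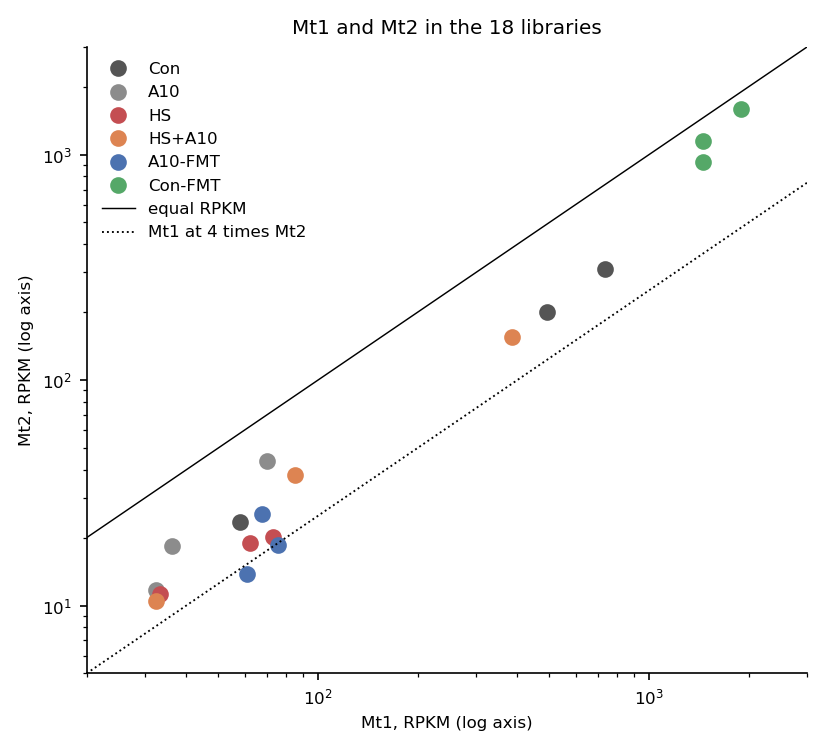
Level of Mt2 against Mt1 in each of the 18 libraries, in RPKM on 2 log axes, with lines of equal RPKM and of Mt1 at 4 times Mt2. The 3 Con-FMT libraries lie at the upper right and nearest to the line of equality, with Mt1 at 1.18 to 1.57 times Mt2.

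Besides the level, the balance of the pair differed. Mt1 was 1.18, 1.57 and 1.26 times Mt2 in the Con-FMT libraries, and between 1.60 and 4.41 times Mt2 in the other 15. The Con-FMT ratios were below all others, although A10 replicate 1, at 1.60, came close to them. Together both genes took 0.314% to 0.479% of all RPKM in Con-FMT and 0.00592% to 0.130% elsewhere. By level, Mt1 ranked 44th to 59th among all genes of the table in Con-FMT and 97th to 1777th in the other libraries. The genes of this family are similar in sequence, and how reads shared between them were assigned was not stated, so that the split between Mt1 and Mt2 is less certain than their sum.

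**Figure D2:**
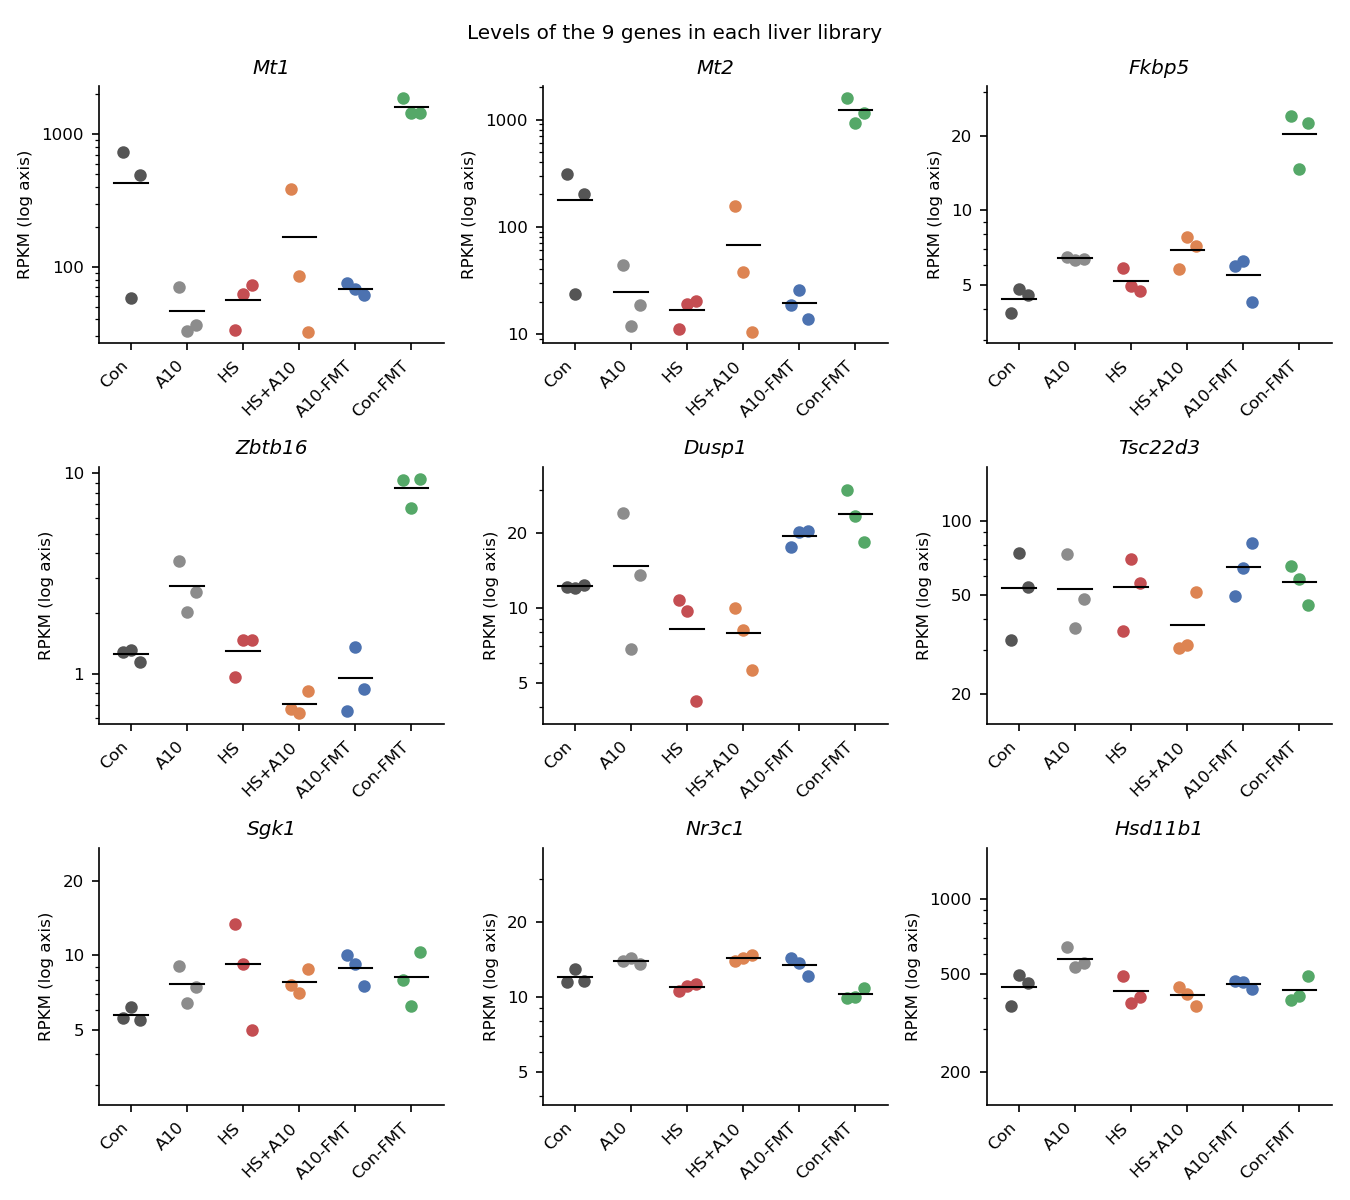
RPKM of each of the 9 genes in each library on log axes, by group, with the points of a group in replicate order from left to right and a bar at the mean. Con-FMT stands above every other library for Mt1, Mt2, Fkbp5 and Zbtb16, and the groups lie close together for Tsc22d3, Sgk1, Nr3c1 and Hsd11b1.

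Fkbp5, which encodes a co-chaperone that lowers the receptor's affinity for hormone, stood at 24.0, 14.7 and 22.4 RPKM in Con-FMT. In HS it was at 5.85, 4.95 and 4.71 RPKM and in A10-FMT at 5.94, 6.25 and 4.25 RPKM. Over the other 15 libraries it ranged from 3.85 to 7.80 RPKM, so that no library outside Con-FMT reached the lowest one inside it. The means of the other groups fell from HS+A10 through A10, A10-FMT and HS to Con, and of these neighbours A10 and A10-FMT alone did not overlap. The Con-FMT mean was 3.94 times that of HS (log2 change 1.77, standard error 0.18, limma adjusted p = 3.65e-04). A10-FMT compared with Con-FMT gave a log2 change of -1.71 (standard error 0.18, limma adjusted p = 5.87e-04).

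Zbtb16, a zinc finger transcription factor gene that glucocorticoids induce in many tissues, stood at 9.24, 6.75 and 9.41 RPKM in Con-FMT. It was at 0.96, 1.47 and 1.48 RPKM in HS, at 0.65, 1.36 and 0.84 RPKM in A10-FMT and at 1.28, 1.32 and 1.15 RPKM in Con. A10 came next below Con-FMT with 3.64, 2.04 and 2.55 RPKM, and HS+A10 was at 0.67, 0.64 and 0.82 RPKM. Con-FMT and A10 each stood clear of the groups below them, while HS, Con, A10-FMT and HS+A10, in the order of their means, overlapped from neighbour to neighbour. The Con-FMT mean was 6.496 times that of HS (log2 change 2.03, standard error 0.16, limma adjusted p = 6.73e-05), and A10-FMT compared with Con-FMT gave a log2 change of -2.28 (standard error 0.16, limma adjusted p = 5.91e-05).

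Dusp1 encodes a phosphatase that switches off MAP kinases. It differed from the genes above in that both groups given microbiota were high, with 29.9, 23.4 and 18.4 RPKM in Con-FMT and 17.7, 20.2 and 20.4 RPKM in A10-FMT. HS was at 10.8, 9.72 and 4.21 RPKM and Con at 12.1, 12.1 and 12.4 RPKM, below both and without overlap. A10 spread widely, at 24.1, 6.85 and 13.5 RPKM, and HS+A10 was at 10.0, 8.15 and 5.61 RPKM. Con-FMT compared with HS gave a log2 change of 1.49 (standard error 0.26, limma adjusted p = 0.00402), and A10-FMT compared with the same HS libraries gave 1.23 (standard error 0.26, limma adjusted p = 0.0132). Without HS replicate 3, the lowest library, these changes were 1.12 and 0.86 and both remained called. The ranges of A10-FMT and Con-FMT overlapped, and their difference was not called.

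Tsc22d3 encodes GILZ, an anti-inflammatory protein induced through the receptor. It lay between 30.7 and 80.8 RPKM over all 18 libraries, and its Con-FMT values of 65.4, 58.3 and 45.8 RPKM overlapped those of HS, 36.0, 69.8 and 56.0 RPKM. Its log2 change in Con-FMT compared with HS was 0.10 with a 95% interval of -0.56 to 0.77. Sgk1, a kinase gene named for its induction by serum and glucocorticoids, stood at 8, 6.25 and 10.3 RPKM in Con-FMT and 13.5, 9.28 and 5.02 RPKM in HS, a log2 change of -0.09 with an interval of -0.67 to 0.48. Neither gene was called in that comparison, and the intervals exclude changes as large as those of the 5 genes described above.

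A window upstream of 1 of the 6 Sgk1 starts is shown because it held the full glucocorticoid response element, 2 half-sites facing each other with 3 bases between, here in capitals. Exact matches to that element were found in 3 of the 32851 windows, or 0.00913%.
Sgk1, chr10:21993640-21993939, plus strand: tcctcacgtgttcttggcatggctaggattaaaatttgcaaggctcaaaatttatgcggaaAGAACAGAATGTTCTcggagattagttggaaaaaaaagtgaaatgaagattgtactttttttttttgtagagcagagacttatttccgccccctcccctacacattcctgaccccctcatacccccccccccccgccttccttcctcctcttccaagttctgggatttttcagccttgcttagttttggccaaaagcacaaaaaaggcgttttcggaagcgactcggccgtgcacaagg
No other window of the 9 genes held the full element. Windows were found for 7 of them, without Nr3c1 and Zbtb16. The half-site was in 3 of the 6 Sgk1 windows, the one shown included, and in 1 of the 3 Tsc22d3 windows. It was in no window of Mt1, Mt2, Fkbp5, Dusp1 or Hsd11b1. These letters outside a window of this length were not searched.

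The receptor gene itself changed little. Nr3c1 was at 9.92, 10.0 and 10.9 RPKM in Con-FMT, 10.6, 11.1 and 11.3 RPKM in HS, and 11.5, 12.9 and 11.6 RPKM in Con. It was higher in A10-FMT (14.4, 13.8 and 12.1 RPKM), HS+A10 (14.0, 14.4 and 14.7 RPKM) and A10 (14.0, 14.3 and 13.6 RPKM). Con-FMT and HS overlapped, with a log2 change of -0.09 and an interval of -0.27 to 0.09. HS+A10 lay above HS without overlap, by 0.36 on the log2 scale (standard error 0.07, limma adjusted p = 0.00863), and A10-FMT lay above HS by 0.27 (standard error 0.08, limma adjusted p = 0.0460). In A10-FMT compared with Con-FMT the change was 0.35 (standard error 0.08, limma adjusted p = 0.0164). The call of A10-FMT compared with HS was lost when any 1 of the 3 HS libraries, or A10-FMT replicate 1 or 2, was left out, with changes of 0.22 to 0.28 then. That of A10-FMT compared with Con-FMT was lost without A10-FMT replicate 1 or 2 or Con-FMT replicate 1, with changes of 0.31 to 0.34. After median scaling the change of Nr3c1 in A10-FMT compared with HS was 0.44, and the gene was then also called lower in HS compared with Con (-0.29).

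Hsd11b1 was among the more abundant of the 9 genes, at 394, 407 and 491 RPKM in Con-FMT and 491, 381 and 402 RPKM in HS. These ranges overlapped, and the log2 change was 0.02 with an interval of -0.27 to 0.32. In A10 it stood at 638, 533 and 552 RPKM, above all of Con (372, 495 and 460 RPKM) and of HS+A10 (443, 415 and 372 RPKM).

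**Figure D3:**
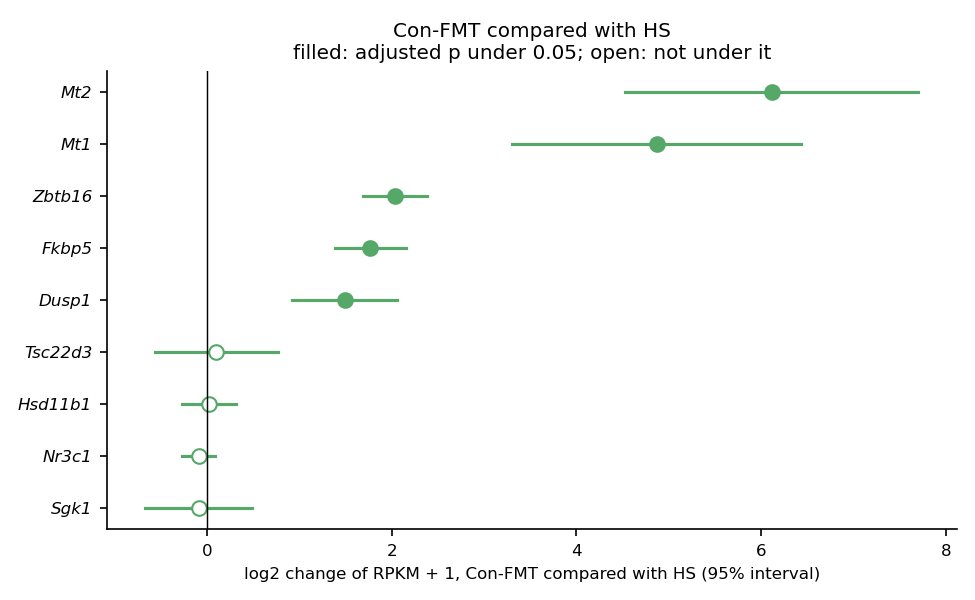
Log2 change of RPKM + 1 of the 9 genes in Con-FMT compared with HS, with 95% intervals from limma and a line at 0. The filled points of Mt2, Mt1, Zbtb16, Fkbp5 and Dusp1 lie between 1.49 and 6.11 and the open points of the other 4 genes lie between -0.09 and 0.10.

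Counted over comparisons, Con-FMT had 5 of the 9 genes called higher and 0 lower than HS, where 3.68% of the 10159 genes tested were called higher and 14.5% lower. Over the 9 genes the log2 change had a median of 1.49, and over all genes it was -0.11. Since the 9 genes were chosen with earlier results known, their excess over these shares is a description only. After scaling each library to the same median, 624 of all genes were called higher and 886 lower, in place of 374 and 1475. The 5 genes were called whichever of the 6 libraries was left out. Without Con-FMT replicate 3, which carried the acinar cell mRNA, the log2 changes of Mt1 and Mt2 were 4.93 and 6.14. In A10-FMT compared with Con-FMT, 4 genes were called lower and 1, Nr3c1, higher, where 8.94% of all genes were called lower and 4.85% higher (908 and 493 genes, or 688 and 936 after median scaling).

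A10-FMT compared with HS shares its HS libraries with the first of these comparisons. There 2 of the 9 genes were called higher, Dusp1 and Nr3c1, and 0 lower, where 1.71% of all genes were called higher and 14.7% lower (174 and 1498 genes, or 396 and 331 after median scaling). Mt1, Mt2, Fkbp5 and Zbtb16 overlapped between A10-FMT and HS. Kupffer cell markers summed to 40.5 to 52.1 RPKM in A10-FMT and 61.3 to 105 RPKM in HS without overlap, with 3 of 6 called lower, and stellate cell markers to 87.6 to 111 RPKM and 113 to 177 RPKM, with 2 of 6 called lower. Their part in these values was not tested. Con-FMT was also set beside Con, a comparison added after the values had been seen. Called higher were 5 of the 9 genes and called lower were 0, where 11.2% of all genes were called higher and 9.15% lower (1139 and 930 genes, or 1053 and 1447 after median scaling). The log2 changes were 3.38 for Mt2, 2.51 for Mt1, 2.06 for Zbtb16, 1.96 for Fkbp5 and 0.89 for Dusp1. Without replicate 3 of Con and of A10 those of Mt2, Mt1, Zbtb16 and Fkbp5 remained called and Dusp1 was not (0.90, limma adjusted p = 0.0846). Mt1 was also not called without any 1 of the Con-FMT libraries, at changes of 2.39 to 2.58, and without Con replicate 2 the changes of Mt1 and Mt2 were 1.40 and 2.26, still called. Dusp1 was not called without Con-FMT replicate 1 or 2 or any 1 of the Con libraries, at 0.72 to 0.90.

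Diet and STZ without transfer of microbiota were followed in HS compared with Con. HS had 1 of the 9 called lower than Con, Mt2, and 0 higher, where 1.04% of all genes were called lower and 8.76% higher (106 and 890 genes, or 255 and 242 after median scaling). Mt2 had a mean of 16.8 RPKM in HS and 178 ± 145 RPKM (SD, n = 3) in Con, which gave a log2 change of -2.74 (standard error 0.72, limma adjusted p = 0.0399). Mt1 had a change of -2.36 (standard error 0.71) and was not called (limma adjusted p = 0.0583), and its ranges overlapped through Con replicate 2. Con replicates 1 and 3 decided both values. Without Con replicate 1 the change of Mt2 was -2.02, and without replicate 3 of Con and of A10 it was -2.33, neither called (limma adjusted p = 0.131 and 0.132), and without Con replicate 2 it was -3.86 (limma adjusted p = 4.17e-04). The call was also lost when HS replicate 1, 2 or 3 was left out, at -2.48 to -2.88. Without Con replicate 2, Mt1 was called at -3.47, and without HS replicate 3, Sgk1 was called at 0.85 against 0.51 in the full fit. The gene Lcn2, an acute phase gene of the list described next, stood at 1043, 47.5 and 612 RPKM in Con, in the same order as Mt1 and Mt2, and neutrophil markers summed to 10.45, 2.98 and 7.27 RPKM there. In HS+A10 replicate 1, where Mt1 was also high, Lcn2 was at 11.7 RPKM. The part of either in the metallothionein values was not tested.

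With AOS given directly, HS+A10 compared with HS called 1 of the 9 genes higher, Nr3c1, and 0 lower, where 2.95% of all genes were called higher and 4.37% lower (301 and 446 genes, or 579 and 356 after median scaling). In A10 compared with Con, 0 of the 9 were called in limma, where 0.0686% of all genes were called in either direction, and 6 of the 9 had an unadjusted p under 0.05, as had 13.9% of all genes. Without replicate 3 of Con and of A10 the unadjusted count was 4 of the 9, and 7.13% of all genes. A10 lay above Con without overlap for 5 of the 9, Zbtb16, Fkbp5, Nr3c1, Hsd11b1 and Sgk1, and for 19.6% of all genes. Without those libraries it was again 5 of the 9, and 29% of all genes. Mt1 in that comparison had a log2 change of -2.64 (limma adjusted p = 0.209), and it was called at -3.76 without Con replicate 2. In HS+A10 compared with A10, 2 of the 9 were called lower and 0 higher, where 7.28% of all genes were called lower and 13.6% higher (743 and 1388 genes, or 1151 and 1243 after median scaling). These were Zbtb16, with a log2 change of -1.11 (standard error 0.16, limma adjusted p = 3.73e-04), and Hsd11b1, with -0.49 (standard error 0.13, limma adjusted p = 0.0139). Without replicate 3 of Con and of A10 they were -1.14 and -0.51 and still called, but Hsd11b1 was not called without HS+A10 replicate 3 (-0.42) or A10 replicate 1 (-0.41). Dusp1 was called there without A10 replicate 2, at -1.13, against -0.70 in the full fit.

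The difference between both effects of AOS, in mice on the high-fat diet and STZ and in mice on regular diet, was tested as an interaction. In limma 0 of the 9 genes were called, where 0.0098% of all genes were called, and 4 of the 9 had an unadjusted p under 0.05, as had 12.9% of all genes. Without replicate 3 of Con and of A10 the unadjusted count was 3 of the 9, and 8.67% of all genes. Zbtb16 came closest. All A10 libraries were above all Con libraries and all HS+A10 libraries below all HS libraries. Levels were near the filter of 1 RPKM in HS+A10 (0.64 to 0.82 RPKM) and HS (0.96 to 1.48 RPKM). The log2 change between these groups, -0.42, was not called (limma adjusted p = 0.124). The interaction was -1.14 on the log2 scale (standard error 0.23, limma adjusted p = 0.10). It was called without HS replicate 1, at -1.25 (limma adjusted p = 0.0314), and was -1.13 without replicate 3 of Con and of A10 (limma adjusted p = 0.407).

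A further 21 genes known as targets of the receptor in liver, also chosen with earlier results known, were all tested. Of these, Con-FMT had 9 called higher and 1 lower than HS, with 0.61 as the median of the 21 log2 changes against -0.11 over all genes. The largest was Lpin1, which encodes a phosphatidate phosphatase of fat synthesis, with 114, 118 and 108 RPKM in Con-FMT against 3.11, 17.4 and 7.14 RPKM in HS (log2 change 3.75, standard error 0.49, limma adjusted p = 0.00104). Igfbp1, a binding protein gene for insulin-like growth factors, rose by 2.09 (limma adjusted p = 0.0202). Per1, a clock gene with direct receptor binding, rose by 1.96, and Cebpb, a transcription factor gene of gluconeogenesis and the acute phase, by 1.502 (limma adjusted p = 0.00424 for each). The classical target Tat, tyrosine aminotransferase, had a change of 0.49 and was not called (limma adjusted p = 0.166). Other targets of this list were lower in Con-FMT than in HS without overlap. Pdk4, at low levels, stood at 0.71, 0.26 and 0.83 RPKM in Con-FMT and 2.25, 1.77 and 1.22 RPKM in HS. G6pc stood at 191, 250 and 151 RPKM in Con-FMT and 315, 342 and 259 RPKM in HS. Igfbp1 lost its call in 2 of 15 alternatives, and of the 21 genes 8 were called without Con-FMT replicate 3, 7 without HS replicate 2 and 6 at the fewest with 1 library left out.

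In A10-FMT compared with Con-FMT, 10 of the 21 were called lower and 0 higher, beside 8.94% of all genes called lower. The median was -0.84 against -0.03 over all genes. Lcn2 (-3.43), Igfbp1 (-3.33), Lpin1 (-2.36) and the cell cycle inhibitor gene Cdkn1a (-2.16) had the largest changes, and Lcn2 lost its call in 10 of 15 alternatives. With 1 library left out in turn, 7 to 9 of the 21 were called. Against HS, A10-FMT had 0 of the 21 called higher and 4 lower, beside 14.7% of all genes called lower, led by Cdkn1a (-2.69), the insulin receptor substrate gene Irs2 (-0.93), Pdk4 (-0.72) and Pck1 (-0.41), which encode a kinase that holds back glucose oxidation and an enzyme of gluconeogenesis. The calls of Pdk4 and Pck1 were lost in 9 of 14 and 11 of 15 alternatives. In HS compared with Con, 5 were called higher and 0 lower, led by Pck1 (1.72), beside 8.76% of all genes called higher. Without replicate 3 of Con and of A10, 1 was called. Angptl4, Cdkn1a and Sds were among the 5, at 1.15, 1.15 and 0.82, and lost their calls in 10, 8 and 11 of 16 alternatives, median scaling included. With AOS given directly, 1 was called higher and 2 lower in HS+A10 compared with HS (Igfbp1 -1.79, Cdkn1a -1.14, Klf9 0.48). Of all genes, 2.95% were called higher and 4.37% lower there, and 0 of the 21 were called without HS replicate 2. A10 compared with Con called 1, Pck1, at 0.82, beside 0.0686% of all genes called in either direction, and 0 without replicate 3 of Con and of A10.

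**Figure D4:**
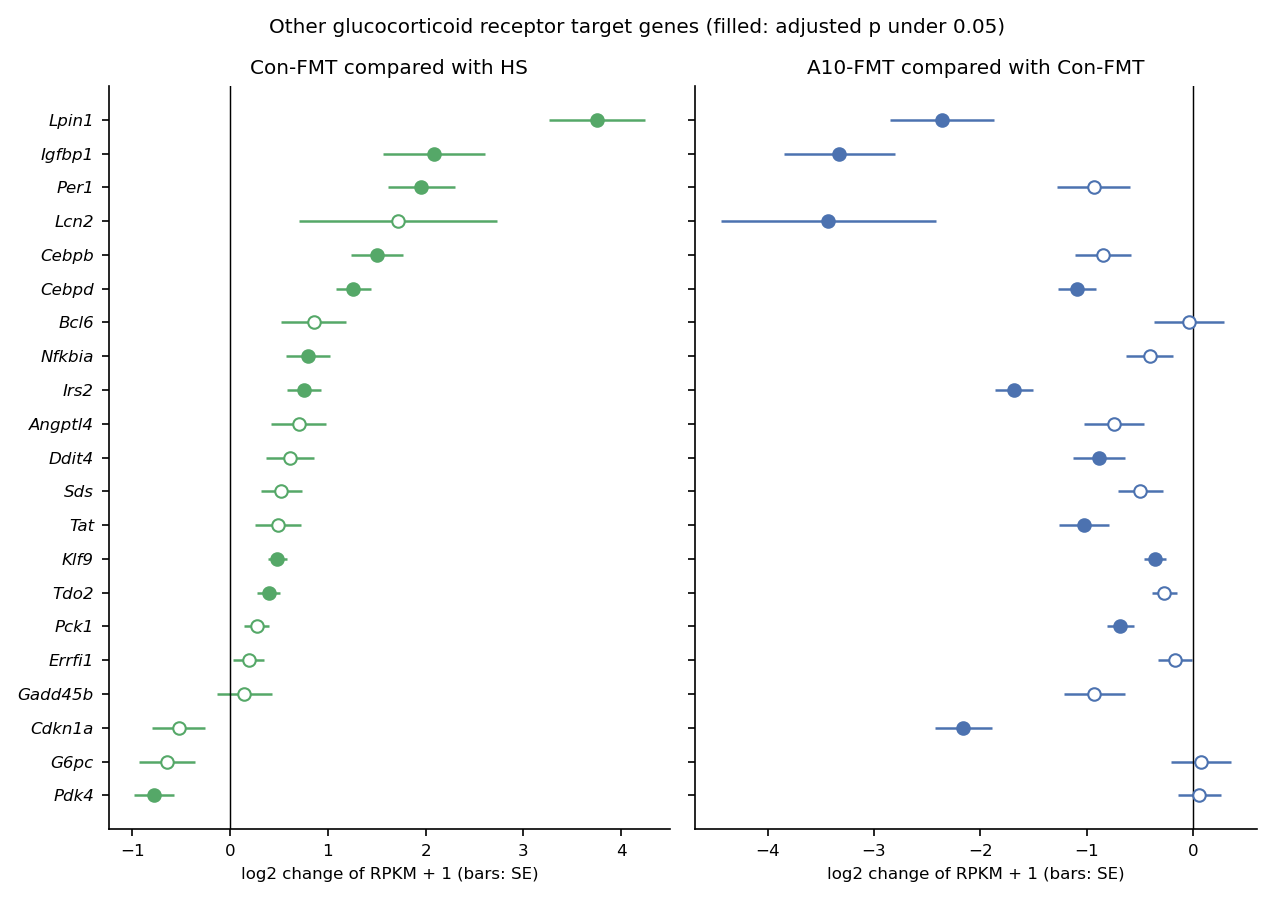
Log2 change of RPKM + 1, with standard errors, of 21 other target genes of the glucocorticoid receptor in Con-FMT compared with HS (left) and A10-FMT compared with Con-FMT (right), in 1 order, filled where the adjusted p was under 0.05. Lpin1 lies at 3.75 on the left and -2.36 on the right, and the Con-FMT libraries enter both panels.

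The 16 chaperones and coregulators of the receptor were all tested. In Con-FMT compared with HS, 1 was called higher, Ptges3, the p23 co-chaperone (0.39), and 0 lower, beside 3.68% of all genes called higher and 14.5% lower. In A10-FMT compared with Con-FMT, 6 were called lower and 0 higher, led by Hsp90aa1 (-1.44), which encodes a heat shock protein that holds the receptor ready for hormone, Hspa8 (-1.37), Stip1 (-1.20) and Hsp90ab1 (-0.94), and 2 to 6 were called with 1 library left out in turn. Of all genes, 8.94% were called lower there. HS libraries varied widely for these genes, with Hsp90aa1 at 90.3, 200.3 and 259 RPKM, while Con-FMT was at 269.8, 309 and 273 RPKM and A10-FMT at 89.7, 75.0 and 167 RPKM. Of the 6 genes of corticosteroid metabolism and transport, 4 were tested. Serpina6, which encodes corticosteroid-binding globulin, was at 383, 318 and 326 RPKM in A10-FMT, 203, 192 and 218 RPKM in Con-FMT and 80.6, 134 and 134 RPKM in HS. It was called higher in A10-FMT compared with HS (1.58), in Con-FMT compared with HS (0.85), in HS+A10 compared with HS (0.98) and in A10-FMT compared with Con-FMT (0.74), and these calls were lost in 0 of 15, 1 of 15, 3 of 14 and 7 of 15 alternatives, respectively. Srd5a1, a steroid 5-alpha-reductase gene, was called higher in HS compared with Con (0.77) and lower in A10-FMT compared with HS (-0.61). The first call was lost in 0 of 16 alternatives, and the second in 5 of 15, median scaling and quantile normalization included.

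Zinc and copper handling was represented by 24 genes, of which 19 were tested. In Con-FMT compared with HS 2 were called higher and 3 lower, where 3.68% of all genes were called higher and 14.5% lower. Slc39a14, a zinc importer of the hepatocyte, stood at 69.8, 76.8 and 104 RPKM in Con-FMT, against 26.7, 34.2 and 33.5 RPKM in HS and 36.7, 32.2 and 38.9 RPKM in A10-FMT. Its log2 change was 1.37 compared with HS (limma adjusted p = 4.79e-04) and -1.18 in A10-FMT compared with Con-FMT (limma adjusted p = 0.00107). Slc30a5, which carries zinc into the secretory pathway, rose by 0.53 in Con-FMT compared with HS and had a change of -0.98 in A10-FMT compared with Con-FMT. Slc30a10, an exporter of manganese, had a change of -0.78 in Con-FMT and -0.95 in A10-FMT, each compared with HS. Mtf1, the gene of the metal-sensing factor, stood at 2.55, 2.75 and 3.33 RPKM in Con-FMT and 2.12, 2.79 and 2.68 RPKM in HS, which overlapped.

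Of 9 immediate-early genes, which answer growth factor and stress signals quickly, 8 were tested. In Con-FMT compared with HS, 4 were called higher and 0 lower, namely Junb (2.84), Btg2 (2.29), Fos (1.56) and Zfp36 (1.29), and the call of Fos was lost in 10 of 14 alternatives. Of all genes, 3.68% were called higher there. A10-FMT replicate 3 was the highest of its group for each of the 9, for example Egr1 at 79.4 RPKM against 3.13 and 2.75 RPKM, and Fos at 11.1 RPKM against 2.83 and 0.91 RPKM. In A10-FMT compared with Con-FMT 2 were called lower, Btg2 (-2.42) and Junb (-2.17), beside 8.94% of all genes. Without A10-FMT replicate 3 the count was 5 of the 8. Between A10-FMT and HS, 0 of the 8 were called in limma.

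Clock genes differed between groups as well. Dbp, a clock output gene, stood at 51.8, 55.5 and 53.0 RPKM in Con-FMT, 98.8, 48.8 and 86.2 RPKM in A10-FMT and 97.4, 47.3 and 52.8 RPKM in HS+A10, against 1.79, 2.22 and 1.17 RPKM in HS. Of 15 clock genes, 9 were called higher and 3 lower in Con-FMT compared with HS, 8 and 4 in A10-FMT compared with HS, and 9 and 4 in HS+A10 compared with HS, while 1 was called higher and 0 lower in A10-FMT compared with Con-FMT. In Con-FMT compared with Con, 10 were called higher and 4 lower, with Dbp at 5.05. In HS+A10 compared with A10 these counts were 9 and 3, with Dbp at 4.63. They were 2 and 1 in HS compared with Con, and 2 and 0 in A10 compared with Con. The shares of all genes called in these comparisons are those given above. Per1 counts in this list and in that of receptor targets. The hour of collection was not given in the sources used here, and the part of these clock gene levels in the 9 genes' values was not tested. Of the other cell type marker lists, Kupffer cell markers summed to 47.53 to 91.55 RPKM in Con-FMT and 61.3 to 105 RPKM in HS, and neutrophil markers to 4.84 to 8.45 RPKM and 1.39 to 5.67 RPKM, so that both overlapped between these groups. Stellate cell markers summed to 86.6 to 103 RPKM in Con-FMT and 113 to 177 RPKM in HS without overlap, with 2 of 6 called lower and 0 higher. Of 4 red blood cell markers tested, 3 were called lower and 0 higher there, with a median log2 change of -3.36. Their sums overlapped, at 875.6 to 3619 RPKM in Con-FMT and 2886 to 10040 RPKM in HS. Among 6 sinusoidal endothelial markers, 1 was called lower. The part of these markers in the result was likewise not tested.

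Genes outside the list were ranked by Pearson's r of log2(RPKM + 1) with each of the 9 genes over the 18 libraries, as a description of libraries that share groups. The genes most like Mt1 were Steap4 (r = 0.88), Tifa (0.86) and Snx10 (0.85), and the same 3 led for Mt2, at 0.88, 0.89 and 0.86. Fkbp5 was followed by Taf7 (0.96), Zfp36l2 (0.94) and Susd6 (0.93), and Zbtb16 by Eif1a (0.93), Lurap1l (0.91) and Fosl2 (0.90). For Nr3c1 the closest were Dsg2 (0.91), Tprkb (0.89) and Slc40a1 (0.88), and for Dusp1 they were Tcim (0.83), Gtf2a2 (0.82) and Serpina11 (0.79). Il1rap led for Hsd11b1 at 0.85, Ryk for Sgk1 at 0.78 and Rpl36 for Tsc22d3 at 0.77.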

How the data were processed

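Liver mRNA of the 18 libraries had been enriched with oligo(dT) beads and sequenced on an Illumina system. Mapping by the authors used SOAPaligner against gene sequences, and they deposited 1 RPKM value per gene and library, with 2 decimals. The submitters' processing notes name Bowtie 0.12.2 and mm10 instead, and which applies to this table was not settled. No read numbers are in the table, so that no counting interval was computed and the precision rests on the 3 libraries per group. Every value column belonged to a labelled sample.

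Values were used as deposited, as log2(RPKM + 1), and the tests took in genes whose mean in the fit reached 1 RPKM. limma 3.58.1 in R 4.3.3 was run with a mean for each group and eBayes(trend=TRUE), over the 12 libraries of Con, HS, A10-FMT and Con-FMT (10159 genes), and over all 18 for A10 and HS+A10 (10204 genes). Tests were two-sided, with Benjamini-Hochberg adjustment over all genes tested. A fold change on this scale understates the change of low genes. On simulated data for Con-FMT compared with HS, 91.5% of 200 genes with a set log2 change of 1 were recovered with their sign, 6 unchanged genes were called, and 0 were called with no gene changed. The simulated noise was normal and independent between genes, with each gene's own spread. It held no shift of a whole library and no mRNA of another tissue. These counts thus give no error rate for the deposited libraries. The authors' test, DEGseq, was not used, since it needs counts and ignores replicate variation.

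The 9 genes, the other gene lists and the marker lists were chosen with earlier results of these data known. All 9 genes are described, at most 4 called genes with the largest absolute change are named per list and comparison, and the 3 genes with the highest correlation per gene. Of other genes, Tat, Pdk4 and G6pc in Con-FMT, Mtf1, Lcn2 in Con and Egr1 and Fos in A10-FMT were named after their values were seen. Sequences and positions came from RefSeq tables on GRCm38.p6, the assembly that mm10 stands for. As alternatives the fits were run with median scaling, a pseudocount of 0.1, a minimum mean of 5 RPKM or none, quantile normalization, a block for the replicate number, other sets of libraries in the fit, no variance trend, the study's threshold (adjusted p of at most 0.001 and absolute log2 change of at least 1) and leaving out each library. The fit without replicate 3 of Con and of A10 and the comparison of Con-FMT with Con were added after seeing the data. Same-numbered libraries deviated together with r over 0.1 in all 3 pairs for no pair of groups, so that the numbers were not taken as pairs.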

Additional observations from a re-analysis of the deposited data

How the results depend on the processing

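No read numbers were used, so that depth sets no stated limit, and the precision rests on 3 libraries per group. The 5 genes called higher in Con-FMT compared with HS remained called under each alternative run at an adjusted p of 0.05, except that Zbtb16 was not tested with a minimum mean of 5 RPKM. With the replicate block, which no pairing in the labels supports, 638 genes and 0 of the 9 were called in HS compared with Con and 1 of the 9 in A10-FMT compared with HS, and it moved no other count of all genes or of the 9 by over 1.5 times. Among the list counts it moved the receptor targets in A10 compared with Con from 1 to 0 and the chaperones in HS+A10 compared with HS from 1 to 5. The causes of the changes listed next were not tested, except where fewer genes or libraries entered.

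With all 18 libraries in the fit, 1809 genes were called in HS compared with Con, in place of 996. With a mean of at least 5 RPKM, the counts were 933 in A10-FMT compared with Con-FMT (1401 before), 968 in Con-FMT compared with HS (1849), 2 in the interaction (1), and 1 of the 9 genes in HS+A10 compared with A10 (2). Median scaling and quantile normalization gave 727 and 755 genes in A10-FMT compared with HS (1672), and 497 and 493 in HS compared with Con. Without a filter, 18 genes were called in A10 compared with Con (7) and 2 in the interaction, and of the 9 genes 1 was called in A10-FMT compared with HS, 3 in Con-FMT compared with Con and 0 in HS compared with Con. Without the variance trend, 1 of the 9 was called in A10-FMT compared with HS, and a pseudocount of 0.1 gave 4 genes in the interaction. With only the groups compared in the fit, the counts were 40 in A10 compared with Con, 687 in A10-FMT compared with Con-FMT, 846 in A10-FMT compared with HS, 777 in Con-FMT compared with HS, 76 in HS+A10 compared with HS (747) and 8 in the interaction, and of the 9 genes 1 in A10-FMT compared with HS, 0 in HS compared with Con and 0 in HS+A10 compared with HS.

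At the study's threshold, genes called were 12 in HS compared with Con, 7 in A10-FMT compared with HS, 49 in Con-FMT compared with HS, 19 in A10-FMT compared with Con-FMT, 2 in HS+A10 compared with HS, 132 in HS+A10 compared with A10, 147 in Con-FMT compared with Con, and 0 in A10 compared with Con and in the interaction. Of the 9 genes, 3 were then called in Con-FMT compared with HS, 2 in A10-FMT compared with Con-FMT, 2 in Con-FMT compared with Con, 1 in HS+A10 compared with A10 and 0 elsewhere. Without replicate 3 of Con and of A10, 268 genes were called in HS compared with Con (0 of the 9), 1212 in Con-FMT compared with Con (2069), 1164 in HS+A10 compared with A10 (2131) and 0 in A10 compared with Con and in the interaction.

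With 1 library left out in turn, genes and members of the 9 called ranged from 268 to 695 and 0 to 2 in HS compared with Con, 559 to 1638 and 1 to 2 in A10-FMT compared with HS, 1105 to 1603 and 5 in Con-FMT compared with HS, 610 to 1159 and 4 to 5 in A10-FMT compared with Con-FMT, 152 to 1233 and 1 in HS+A10 compared with HS, 0 to 72 and 0 to 1 in A10 compared with Con, 1325 to 1688 and 1 to 3 in HS+A10 compared with A10, 1212 to 1792 and 3 to 4 in Con-FMT compared with Con, and 0 to 118 and 0 to 1 in the interaction. Signs turned for 4 genes near 0 in Con-FMT compared with HS, none called. Sgk1 was 0.0106 with median scaling and 0.0114 with quantile normalization, and -0.43 to 0.20 with a library left out, Nr3c1 was 0.0169 after median scaling, Hsd11b1 was -0.0183 after quantile normalization and -0.0766 to 0.13 with a library left out, and Tsc22d3 was -0.16 to 0.31 with a library left out. Under median scaling Nr3c1 was called lower in HS compared with Con (-0.29) and in Con-FMT compared with Con (-0.27).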
